A study of Lepidobatrachus laevis with 14 samples.

Results

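The genes described here encode the semaphorins, the plexins and neuropilins, the ephrins, the Eph receptors and netrin-1. They were taken from the table of read counts by entry name, and 43 of the 13574 reviewed human protein entries in that table matched. The 43 entries comprised 15 semaphorins, 11 plexins and neuropilins, 7 ephrins, 9 Eph receptors and netrin-1. They covered 64 rows, because 14 entries had several rows, and the row of highest mean count stands for each entry. Entries were matched by name alone, but the families were chosen with earlier results of these data known.

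Transcripts were counted in the stomach of Lepidobatrachus laevis, a frog with carnivorous larvae, at Gosner stage 19. All animals were wild-type and of wild-caught background, with no treatment named. Each side of the stomach, left or right, was represented by 7 libraries, of which 5 held tissue of 1 stomach (replicates 1, 2, 3, 5 and 6) and 2 held tissue pooled from 5 stomachs (replicates 7 and 8). The series title names Single-minded 2 as required for asymmetric stomach shape, and the left and right libraries allow transcripts to be compared across the organ. The 10 single-stomach libraries came from one facility and the 4 pools from another, and the effects of pooling and of the facility cannot be told apart.

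Semaphorins are secreted or membrane-bound signals read by plexins, and the secreted class 3 semaphorins mostly bind a neuropilin that acts with a plexin. Ephrins and Eph receptors are both held in the cell membrane, so that contact between cells starts a signal, and they are known for keeping cell populations apart and for guiding axons. Netrin-1 is a secreted guidance protein related to laminins. These systems direct growing axons, migrating cells, blood vessels and the sorting of cells at tissue boundaries, in the gut as elsewhere.

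Totals per library were 21525694 to 62707669 counts in the single-stomach libraries and 12174670 to 20022774 in the pools. Within the single-stomach libraries, replicates 1 to 3 held 21525694 to 34229305 counts and replicates 5 and 6 held 47441280 to 62707669. Levels are given as CPM, counts divided by the scaled library total of each library and put on a common scale. The file gives no lengths, so levels of different genes were not compared, except that read counts helped to choose members for description. Of 10 markers of foregut and stomach all 10 passed the filter on low counts, and their summed level was 662 to 965 CPM across the 14 libraries. Markers of the liver were also present in every library, at a summed 1383 to 25589 CPM. Names are those of the human counterparts of the frog transcripts. Reads of close paralogs, and of several rows of 1 entry, may have been shared or split between rows.

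Between left and right stomach, no entry of these families passed over all rows when all 14 libraries were fitted, by edgeR or by DESeq2 with library source as a term. A DESeq2 fit of the 5 single-stomach title pairs called 105 rows, 1 of them a member, EPHB3, which edgeR did not call. In edgeR's quasi-likelihood test, which also took account of whether a library was single-stomach or pooled (library source), 0 of the 40 entries that passed the filter were called at an adjusted p of 0.05, beside a background of 0% of 23271 rows. At an unadjusted p under 0.05, the test passed 1 of the 40 entries, netrin-1, and 247 rows in all (1.06%). DESeq2 on the 14 libraries with side and library source likewise gave 0 calls, with 373 rows at an unadjusted p under 0.05. No entry separated the sides without overlap, beside 0.00859% of rows with all left libraries above all right ones. Fitted folds were split evenly, with 20 entries positive (higher on the left) and 20 negative, and their median log2 fold was -0.001 beside 0.01 over all rows. The log2 fold of 37 of the 40 entries lay within 0.5 of zero. Those outside were EPHA3 (0.71 ± 0.45), NTN1 (0.69 ± 0.29) and EPHA7 (0.67 ± 0.39). The standard errors of the 40 folds ran from 0.08 to 0.58, with a median of 0.25. They set the size of difference that 7 against 7 libraries could show. The 3 entries that did not pass the filter, EPHA6, PLXNA4 and SEMA6B, had counts at or near 0. A side difference in them was not detectable at this depth. EPHA6 had 27 counts over the 14 libraries, PLXNA4 60 and SEMA6B 62.

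Semaphorins, the ligands, were divided between the directions. Of the 14 tested, 8 had a positive and 6 a negative fold, with a median log2 fold of 0.01. This division shifted with the scaling, to 7 and 7 with median-of-ratios factors and to 6 and 8 without scaling, and to 3 and 11 without the right library of replicate 3.

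SEMA3A, the secreted semaphorin that binds neuropilin-1, was at 50.6 CPM in the lowest, 157 in the median and 230 in the highest left library. On the right it was at 77.8, 165 and 215 CPM, so the sides overlapped almost fully. Its log2 fold was -0.005 ± 0.20 (SE, n = 7 per side; edgeR adjusted p = 1). SEMA4C, a membrane-bound ligand of plexin-B2, varied least of all members. Its left libraries ran from 56.4 through a median of 70.9 to 78.5 CPM and its right libraries from 53.5 through 72.1 to 83.5 CPM. The log2 fold of SEMA4C was -0.02 ± 0.08, the smallest error of the 40. The interval of 2 SE on either side of it ran from -0.18 to 0.14.

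The other semaphorins singled out by family had wider errors and overlapping sides. SEMA4A, a membrane-bound semaphorin, had medians of 5.22 CPM (left) and 5.40 CPM (right), with a log2 fold of 0.14 ± 0.23. SEMA5B had medians of 12.7 and 16.4 CPM and a log2 fold of 0.01 ± 0.26. SEMA6A, a membrane-bound ligand of plexin-A2, had medians of 106 and 105 CPM and a log2 fold of 0.03 ± 0.18. Their ranges on the left enclosed or overlapped those on the right in each case. SEMA7A, the membrane-anchored semaphorin that binds plexin-C1, was low on both sides, at 0.11 to 2.69 CPM on the left and 0.13 to 2.60 CPM on the right, with a log2 fold of -0.24 ± 0.40.

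Of the 10 tested plexins and neuropilins, the receptors for semaphorins, 9 had a negative and 1 a positive fold, with a median log2 fold of -0.12 and none past the threshold (edgeR). In the single-stomach libraries alone, fitted by title pair, 6 were negative in DESeq2 and 5 in edgeR, so the split of 9 and 1 was not kept there. Without scaling it stayed at 9 and 1. In the pools alone, 2 libraries per side, 8 of the 10 had a negative and 2 a positive fold in edgeR, with a median log2 fold of -0.36. The left pool of replicate 8 was the lowest library for NRP1, NRP2, PLXNA2, PLXNB2 and PLXNB3. Without that library alone, edgeR gave 8 negative and 2 positive folds, with a median log2 fold of -0.06. Without the right library of replicate 3 the split stayed at 9 and 1.

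PLXNB2, a receptor for class 4 semaphorins, was at 97.0 to 278 CPM on the left with a median of 164, and at 134 to 255 CPM on the right with a median of 191. Its log2 fold was -0.14 ± 0.14. PLXNA2, a receptor for class 3 and class 6 semaphorins, was at 6.52 to 51.9 CPM on the left and 11.04 to 52.8 CPM on the right, with a log2 fold of -0.30 ± 0.28. Both sides of each gene held libraries at both ends of the range. PLXNC1, the receptor for SEMA7A, had the most negative fold of the group, -0.43 ± 0.58, between 0.31 and 4.24 CPM on the left and between 0.40 and 4.23 CPM on the right. NRP2, a co-receptor that prefers SEMA3F, had a left median of 49.4 CPM and a right median of 49.8 CPM and a log2 fold of -0.11 ± 0.21. PLXND1, the receptor that binds SEMA3E directly, had medians of 43.1 and 49.96 CPM and a log2 fold of -0.12 ± 0.27. PLXNA3 and PLXNB3 lay closer to zero, at -0.02 ± 0.26 and -0.06 ± 0.22.

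The 7 ephrins had 3 positive and 4 negative folds, with a median log2 fold of -0.03. EFNB1, a transmembrane ephrin, was at 170 to 387 CPM on the left with a median of 256 and at 110 to 381 CPM on the right with a median of 254. Its log2 fold was 0.09 ± 0.21, and the sides overlapped. EFNA5, an ephrin anchored in the membrane by a lipid, was at 54.3 to 60.9 CPM in 6 left libraries and at 17.3 CPM in the left pool of replicate 8. On the right it ran from 46.7 to 78.5 CPM, with a median of 59.6. The log2 fold of EFNA5 was -0.24 ± 0.22. EFNB3 was likewise lowest in that left pool, at 2.88 CPM, and had a log2 fold of -0.22 ± 0.35 with right libraries between 3.94 and 18.8 CPM. EFNA1, EFNA2 and EFNA3 had log2 folds of -0.10 ± 0.14, 0.05 ± 0.34 and 0.10 ± 0.26.

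Of the 8 tested Eph receptors, 7 had a positive and 1 a negative fold, with a median log2 fold of 0.14 and none past the threshold (edgeR). The count of positive folds was 6 without scaling, 6 without the left library of replicate 8, 6 without the right library of replicate 3, and 4 of 8 in the pools alone. EPHA7, a receptor for A-type ephrins, was at 6.64, 14.6 and 30.8 CPM in the lowest, median and highest left library. On the right it was at 3.74, 9.22 and 20.7 CPM, and most of both ranges was shared. Its log2 fold was 0.67 ± 0.39 (adjusted p = 1). EPHA4, which binds both ephrin types, had a left median of 119 CPM, a right median of 143 CPM and the negative fold, -0.08 ± 0.17. EPHB2, a receptor for B-type ephrins, had medians of 50.5 and 52.9 CPM and a log2 fold of 0.002 ± 0.17.

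EPHB3, a receptor for B-type ephrins that in the mouse intestine takes part in sorting cells along crypts, was the 1 member called between the sides when all 5 single-stomach pairs were compared. On the left it was at 40.9, 58.3 and 91.2 CPM in the lowest, median and highest library, and on the right at 37.8, 46.0 and 80.5 CPM. The sides overlapped. Over all 14 libraries the log2 fold was 0.31 ± 0.17 (n = 7 per side; edgeR adjusted p = 1), with an interval of 2 SE from -0.02 to 0.64.

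Netrin-1 (NTN1) was at 1.30, 5.75 and 9.48 CPM in the lowest, median and highest left library and at 0.577, 2.80 and 8.73 CPM on the right. The sides overlapped, and the lowest values on both sides were those of the pools. The edgeR log2 fold was 0.69 ± 0.29 (adjusted p = 1), and before adjustment its p was 0.034. Its 2 SE interval ran from 0.10 to 1.28.

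**Figure D1:**
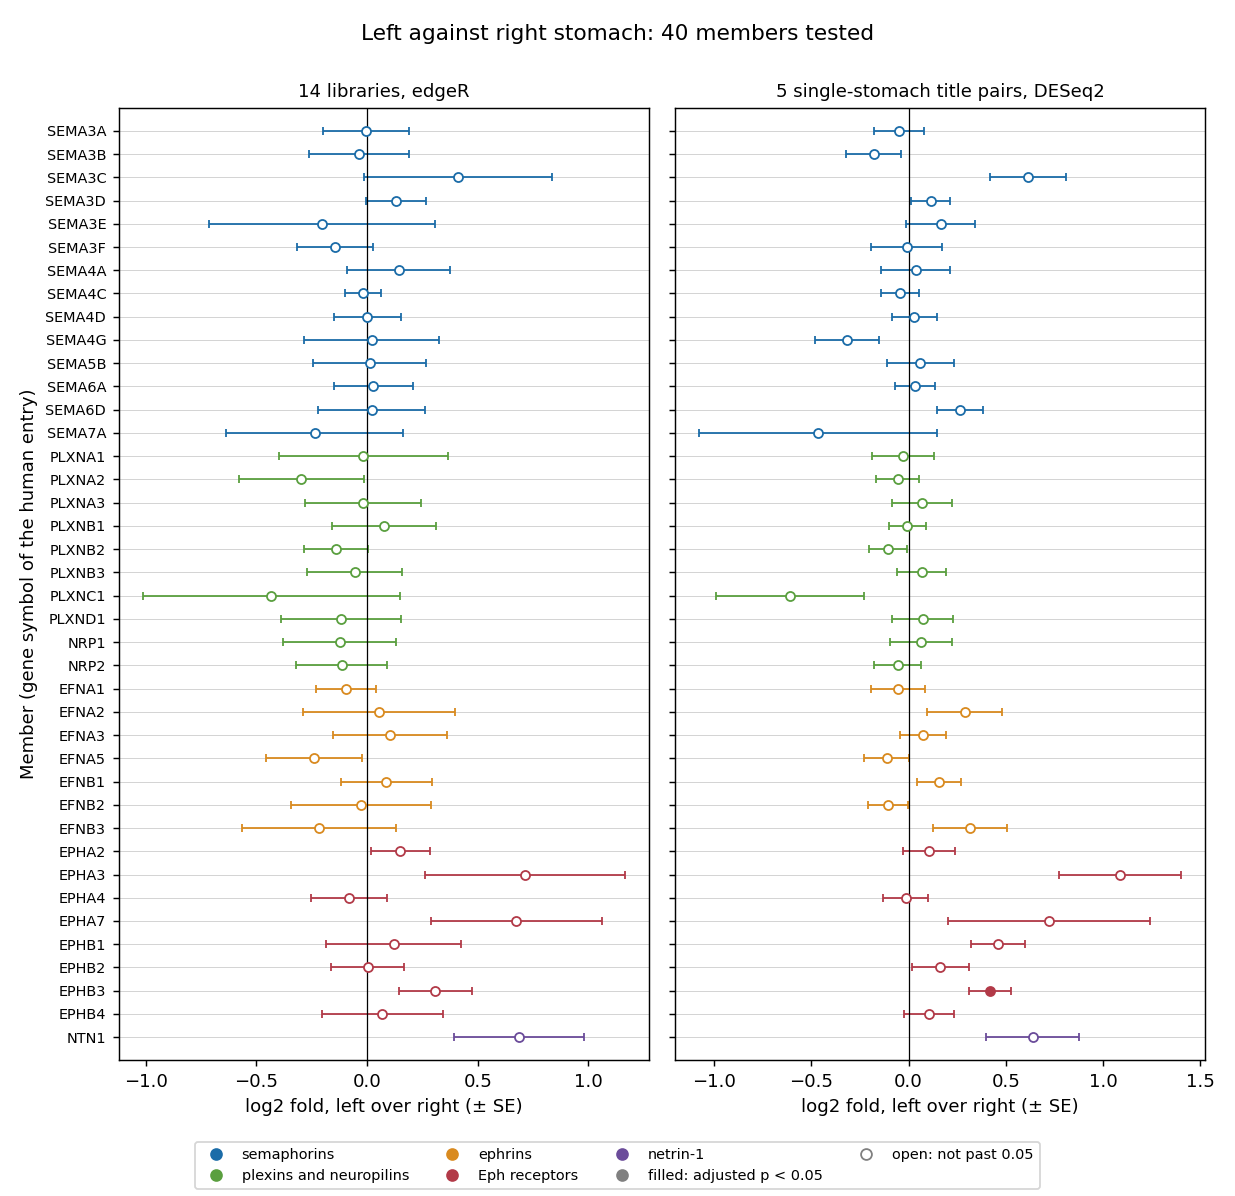
Log2 fold, left over right, of each of the 40 tested entries (x axis, with SE bars) by gene (y axis), in all 14 libraries by edgeR on the left panel and in the 5 single-stomach title pairs by DESeq2 on the right panel. Filled points pass an adjusted p of 0.05; EPHB3 in the right panel is the 1 filled point.

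The single-stomach libraries carry paired titles, 1 left and 1 right for each of replicates 1, 2, 3, 5 and 6, and libraries of 1 title pair deviated together. Fitted within these 5 pairs by DESeq2, 105 of 23768 rows were called (0.442%), 36 higher and 69 lower on the left. Of the 40 entries 1 was called, EPHB3, beside 0.151% of rows called higher. SEMA7A had no adjusted p in this fit and could not be called. edgeR with the same design called 0 rows, with 1360 rows (5.72%) and 7 of the 40 entries at an unadjusted p under 0.05. Of these 7 only SEMA4G had a negative fold, -0.31 ± 0.13 (edgeR unadjusted p = 0.0461). Its left level was the higher in 1 of 5 pairs. The pools went the other way for SEMA4G, at 18.8 and 18.3 CPM on the left and 9.11 and 13.5 CPM on the right. Over all 14 libraries its edgeR log2 fold was 0.02 ± 0.30.

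EPHB3 had the higher level on the left in 5 of 5 pairs. Its levels were 58.3 CPM left and 46.4 CPM right in replicate 1, 75.9 and 52.5 in replicate 2, 91.2 and 80.5 in replicate 3, 63.1 and 37.8 in replicate 5, and 58.3 and 46.0 in replicate 6. The ratios of left to right were therefore 1.26, 1.45, 1.13, 1.67 and 1.27. The DESeq2 log2 fold was 0.42 ± 0.11 (adjusted p = 0.0337), a 1.34-fold difference, and edgeR with the same pairs gave 0.43 ± 0.09 (adjusted p = 0.559). The call depended on single pairs, as the adjusted p in DESeq2 was 0.205 without pair 1, 0.335 without pair 2, 0.0204 without pair 3, 0.0631 without pair 5 and 0.102 without pair 6. In the pools EPHB3 was at 47.2 and 40.9 CPM on the left and at 42.6 and 40.7 CPM on the right, a log2 fold of 0.05 ± 0.25 (edgeR adjusted p = 1). With the pools included and the pairs as a block, the log2 fold was 0.33 ± 0.10 (DESeq2 adjusted p = 0.615).

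At an unadjusted p under 0.05 the paired DESeq2 fit passed 6 of the 40 entries, all with positive folds, which is 15% beside 4.92% of all rows in either direction and 1.9% in that direction. Besides EPHB3 and NTN1 these were EPHA3, EPHB1, SEMA3C and SEMA6D, which were chosen for description after their values were seen. None of the 5 besides EPHB3 passed over all rows with the 5 pairs.

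EPHA3, a receptor for A-type ephrins, was at 3.94 CPM left and 1.47 CPM right in replicate 1, 4.59 and 3.15 in replicate 2, 3.32 and 4.04 in replicate 3, 1.68 and 0.401 in replicate 5, and 2.199 and 0.601 in replicate 6. The left was higher in 4 of 5 pairs, replicate 3 being the exception. The log2 fold was 1.09 ± 0.31 (DESeq2 adjusted p = 0.076), and the entry was not called. Leaving out 1 pair at a time gave adjusted p-values of 0.923 without pair 1, 0.243 without pair 2, 0.00934 without pair 3, 0.571 without pair 5 and 0.681 without pair 6. The folds in these fits ran from 0.87 without pair 5 to 1.45 without pair 3, the pair that went the other way. Counts behind EPHA3 were 24 to 155 per single-stomach library. The pools held 7.80 and 3.56 CPM on the left and 3.33 and 3.61 CPM on the right, with 1 left pool above the others. These values are those of the most abundant row. A second row of EPHA3 had a log2 fold of 0.48 over the pairs (DESeq2 unadjusted p = 0.336) and no adjusted p.

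EPHB1, a receptor for B-type ephrins, had its higher level on the left in 5 of 5 pairs, with ratios of 1.92, 1.13, 1.22, 1.59 and 1.21 in replicates 1, 2, 3, 5 and 6. The log2 fold over the pairs was 0.46 ± 0.14 (DESeq2 adjusted p = 0.12). In the pools the order was not the same, with 13.5 and 10.1 CPM on the left and 12.2 and 25.4 CPM on the right.

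SEMA3C, a secreted semaphorin known for guiding neural crest cells into the outflow tract of the mouse heart, was above its right level in 5 of 5 pairs. Its levels were 6.06 CPM left and 2.999 CPM right in replicate 1, 4.62 and 2.72 in replicate 2, 10.0 and 6.73 in replicate 3, 2.32 and 2.09 in replicate 5, and 2.27 and 1.503 in replicate 6. The log2 fold was 0.61 ± 0.20 (DESeq2 adjusted p = 0.172), and the entry was not called. Without pairs 1, 2, 3, 5 and 6 in turn the adjusted p was 1, 0.656, 0.401, 0.0435 and 0.375, and the folds ran from 0.51 without pair 1 to 0.73 without pair 5. The pools overlapped, at 2.34 and 0.985 CPM on the left and 1.42 and 2.74 CPM on the right.

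SEMA6D, a membrane-bound ligand of plexin-A1, had left levels above the right in 5 of 5 pairs, with ratios of 1.10, 1.16, 1.13, 1.62 and 1.08. Over the pairs the log2 fold was 0.26 ± 0.12 (DESeq2 adjusted p = 0.708). The entry had 5 rows, and the paired values above are those of the most abundant row alone. Within the same pairs the DESeq2 log2 folds were 0.26 and 0.19 in the 2 most abundant rows. The other 3 rows went the other way there, at -0.26, -0.30 and -0.18, and none of the 5 was called. Over all 14 libraries the edgeR log2 folds of the rows were 0.02 and 0.03 in the 2 most abundant and -0.37, -0.49 and -0.55 in the other 3, with unadjusted p-values of 0.056, 0.017 and 0.0396 for those 3 and an adjusted p of 1 for each.

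NTN1 had left levels above the right in 4 of 5 pairs, with ratios of 2.75, 1.86, 2.08, 0.659 and 1.38 in replicates 1, 2, 3, 5 and 6. Over the pairs the log2 fold was 0.64 ± 0.24 (DESeq2 adjusted p = 0.375), and the entry was not called. Without pairs 1, 2, 3, 5 and 6 in turn the adjusted p was 1, 1, 0.83, 0.00639 and 0.804. The folds ran from 0.44 without pair 1 to 0.95 without pair 5, the pair with the higher right library. Both left pools, at 1.30 and 2.42 CPM, stood above both right pools, at 1.03 and 0.577 CPM, on counts of 8 to 32 per pool.

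**Figure D2:**
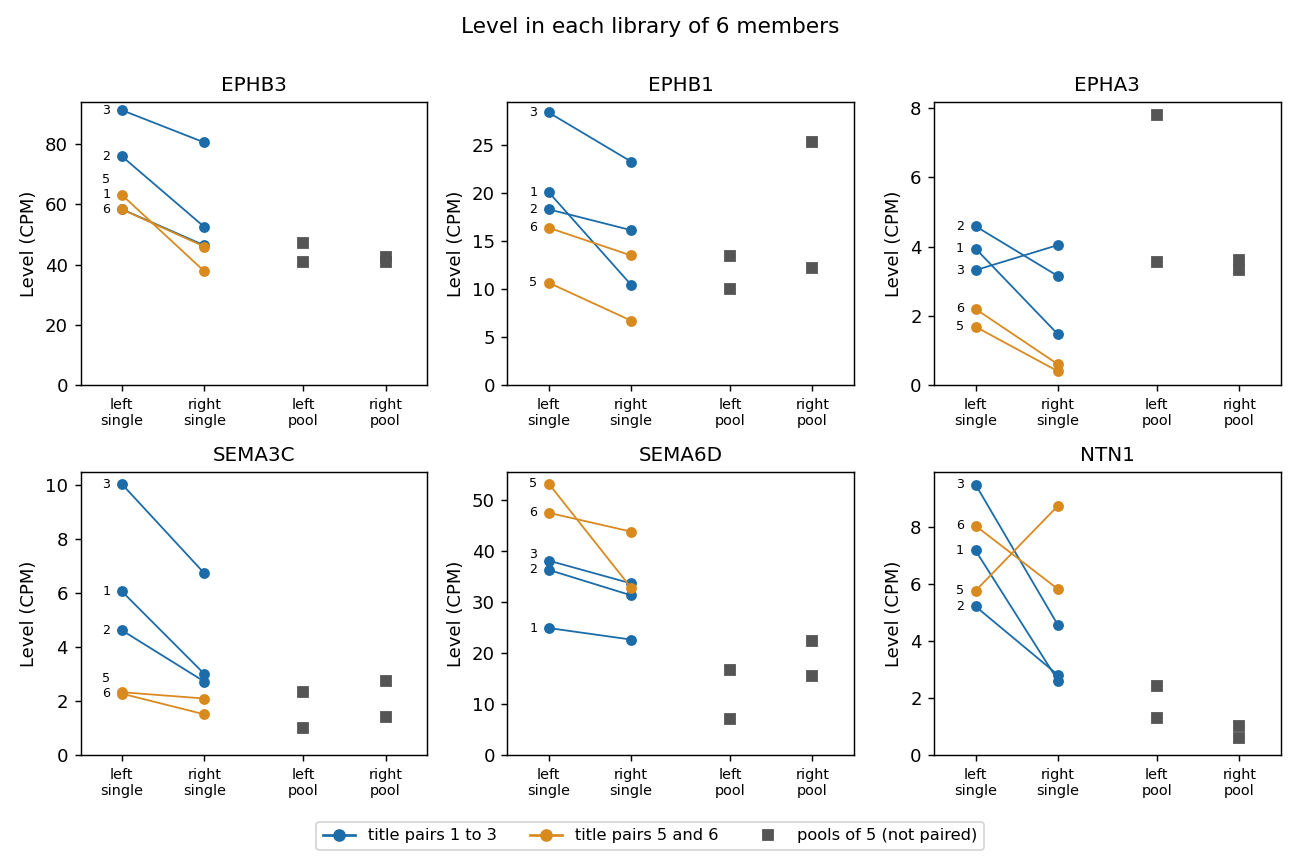
Level in CPM (y axis) of EPHB3, EPHB1, EPHA3, SEMA3C, SEMA6D and NTN1 in each library, with lines joining the left and right library of a title pair (numbered) and squares for the pools. EPHB3 falls from left to right along all 5 lines, with ratios of 1.13 to 1.67, while its pools lie at 40.7 to 47.2 CPM on both sides.

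Of the 40 entries, 4 were higher on the left in all 5 pairs (10%, beside 3.53% of all rows) and 0 were lower in all 5 (beside 3.78%). The 4 were EPHB1, EPHB3, SEMA3C and SEMA6D, and only EPHB3 of them had a mean level in the pools that was higher on the left. Within these pairs markers of other cell types also differed. Of 9 tested markers of neural crest and enteric neurons 8 had positive folds and 2 were called higher on the left by DESeq2, SOX10 (log2 fold 2.76 ± 0.69, adjusted p = 0.0229) and DBH (0.91 ± 0.24, adjusted p = 0.0308). SOX10 was at 0.08 to 17.6 CPM in the left single-stomach libraries and at 0 to 2.74 CPM in the right ones. The summed level of the list overlapped, at 44.9 to 141 CPM on the left and 38.6 to 122 CPM on the right. Of 7 tested liver markers all 7 had negative folds and 6 were called lower on the left, with sums of 1383 to 5051 CPM on the left and 2398 to 9557 CPM on the right. Of 7 tested epidermis markers all 7 had negative folds and TGM1 was called lower (-0.80 ± 0.18, adjusted p = 0.00734), with sums of 281 to 1538 CPM on the left and 510 to 1610 CPM on the right. Of 7 tested smooth muscle markers 5 had negative folds and ACTA2 was called lower (-0.43 ± 0.11, adjusted p = 0.0212), with sums of 549 to 1289 CPM and 687 to 1386 CPM. Of the 10 foregut and stomach markers 6 had positive and 4 negative folds, and PDX1 (-0.61 ± 0.14, adjusted p = 0.00634) and GATA4 (-0.45 ± 0.11, adjusted p = 0.011) were called lower on the left. Endothelial markers had 5 positive and 5 negative folds and skeletal muscle markers 5 and 1, with 0 called. Some markers had no adjusted p in DESeq2 and could not be called there. Among them were MYOD1 (2.81 ± 1.21), TNNC2 (1.51 ± 0.52) and TNNI2 (0.29 ± 0.43) of skeletal muscle. Others were FOXD3 (1.90 ± 0.58) and ELAVL4 (0.26 ± 0.45) of neural crest and enteric neurons, DES (0.41 ± 0.44) and KRT14 (-0.71 ± 0.41). edgeR with the same pairs called 0 markers of these lists. The part of these markers in the differences of EPHB3 and the other members was not tested. In tissue of mixed cells, fewer cells of a type and less RNA per cell cannot be told apart.

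Listed partners of these receptors, and genes of the netrin and Slit systems, which include other guidance ligands and receptors, showed no call between the sides. Of 20 listed partners of semaphorin and plexin signalling 17 were tested by edgeR over the 14 libraries, with 10 positive folds, 7 negative and 0 called. Of 20 listed partners of Eph and ephrin signalling 18 were tested, with 8 positive, 10 negative and 0 called. Of 20 genes of netrin and Slit guidance 14 were tested, with 6 positive, 8 negative and 0 called. Median log2 folds of the lists were 0.03, -0.01 and -0.07, beside 0.01 over all rows. Within the 5 single-stomach pairs 0 were called as well, by DESeq2 or edgeR. The lowest adjusted p in DESeq2 was that of SLIT1 (log2 fold 0.96 ± 0.26, adjusted p = 0.0514). DRAXIN (1.21 ± 0.45) and DPYSL5 (0.37 ± 0.47) had no adjusted p in DESeq2 and could not be called there. The semaphorin and plexin partners had 9 positive and 8 negative folds in DESeq2 and 10 and 7 in edgeR. The Eph and ephrin partners had 13 and 5 in DESeq2 and 14 and 4 in edgeR, with medians of 0.05 and 0.06. The netrin and Slit genes had 9 and 5 in DESeq2 and 11 and 3 in edgeR, with medians of 0.16 and 0.17.

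Single-stomach libraries differed from pools in many of these genes. edgeR with side as a term called 18 of the 40 entries (45%), beside 30.4% of 23271 rows. Of these, 17 were higher in the single-stomach libraries, beside 17.7% of rows, and 1 was lower, beside 12.7%. The folds of 33 entries were positive, with a median log2 fold of 0.57, where all rows had a median of 0.10. Without scaling the median of all rows was 0.27 and that of the members 0.75, 21 members were called, and the split of called rows moved from 4127 higher and 2955 lower to 5264 and 1881. With the threshold as set, 13 of the 18 calls held in each of 14 fits that left out 1 library. These fits counted each single-stomach library separately, although the libraries carry paired titles, and leaving out 1 library kept the other of its title. With 1 library per title, 7 members were called in the left libraries alone and 6 in the right alone. Only NTN1, SEMA3D and SEMA7A were called in both.

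Among semaphorins 8 of 14 were called higher and 1 lower. SEMA5B, a membrane-bound semaphorin with repeats of the thrombospondin type, was at 10.7, 17.0 and 31.8 CPM in the lowest, median and highest single-stomach library. In the pools it was at 6.93, 7.49, 3.71 and 6.35 CPM, all below the single-stomach libraries. The difference was a log2 fold of 1.53 ± 0.31 (n = 10 and 4 libraries, titles not paired; edgeR adjusted p = 0.0021). SEMA6D was at 22.6, 35.0 and 53.2 CPM in the single-stomach libraries and at 7.05 to 22.3 CPM in the pools, again without overlap. SEMA6D had a log2 fold of 1.24 ± 0.29 (adjusted p = 0.00497). SEMA3B, a secreted semaphorin that signals through neuropilins, was at 21.9, 34.3 and 51.8 CPM in these libraries and in the pools at 8.84 to 24.2 CPM, with a slight overlap and a log2 fold of 1.23 ± 0.27. SEMA3D, another secreted semaphorin, was at 48.5 to 80.8 CPM and in the pools at 21.3 to 31.9 CPM, with a log2 fold of 1.07 ± 0.16.

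SEMA4A, SEMA3A and SEMA6A were called higher as well, with log2 folds of 1.22 ± 0.28, 1.03 ± 0.23 and 0.75 ± 0.20. SEMA4C was called at the smallest difference, 0.37 ± 0.09, between 67.0 and 83.5 CPM in the single-stomach libraries and between 53.5 and 59.8 CPM in the pools. SEMA6A lost its call without the right library of replicate 8 (adjusted p = 0.0514).

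SEMA7A went the other way. It was at 0.11, 0.47 and 0.85 CPM in the lowest, median and highest single-stomach library and at 2.69, 2.55, 2.05 and 2.60 CPM in the pools. The 4 pools stood above all 10 single-stomach libraries, with a log2 fold of -2.46 ± 0.41 (edgeR adjusted p = 0.000552). Counts of SEMA7A were low, between 4 and 52 per library. Its receptor PLXNC1 also had a negative fold, -1.18 ± 0.62 (adjusted p = 0.165), without passing the threshold. Unlike SEMA7A, PLXNC1 overlapped the pools (1.62 to 4.24 CPM) in replicates 1 to 3, at 0.81 to 4.23 CPM. Only replicates 5 and 6 lay wholly below the pools, at 0.31 to 0.42 CPM.

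Among plexins and neuropilins 4 of 10 were called higher. PLXNA2 was at 17.6, 29.2 and 52.8 CPM in the lowest, median and highest single-stomach library and at 9.01, 20.6, 6.52 and 11.04 CPM in the pools. The groups overlapped only through the right pool of replicate 7, and the log2 fold was 1.52 ± 0.34 (edgeR adjusted p = 0.00406). PLXNB3, a receptor for class 5 semaphorins, was at 12.5 to 32.0 CPM and in the pools at 7.20 to 9.81 CPM, with no overlap and a log2 fold of 1.04 ± 0.25. PLXNB2 was at 157 to 278 CPM and in the pools at 97.0 to 148 CPM, also apart, with a log2 fold of 0.70 ± 0.17. NRP2 was called at 0.84 ± 0.24 and lost its call without the left library of replicate 8 (edgeR adjusted p = 0.054). In replicates 1 to 3 it was at 35.3 to 52.7 CPM and overlapped the pools, which were at 25.9 to 39.4 CPM, through the left library of replicate 3. Replicates 5 and 6 lay higher, at 77.3 to 86.0 CPM.

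Among ephrins the 3 calls were A-type. EFNA1 had a log2 fold of 0.58 ± 0.16, with 14.2 to 24.2 CPM in the single-stomach libraries and 11.3 to 16.3 CPM in the pools. EFNA2 had a log2 fold of 1.12 ± 0.40 (edgeR adjusted p = 0.048), with 16.7 to 51.1 CPM and, in the pools, 2.73 to 15.2 CPM. The call of EFNA2 was lost in 13 of the 14 fits that left out 1 library, at adjusted p-values of 0.0502 to 0.0926. EFNA3, at 0.96 ± 0.30, lost its call without the left library of replicate 7 (adjusted p = 0.0537), the left library of replicate 8 (0.057) or the right library of replicate 8 (0.0891). It was at 49.1 to 61.2 CPM in replicates 1 to 3, above all pools. In replicates 5 and 6 it was at 22.2 to 30.6 CPM and overlapped the pools, which were at 16.7 to 25.5 CPM. The B-type ephrin EFNB1 had a negative fold of -0.54 ± 0.22 that did not pass (adjusted p = 0.0835).

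Among Eph receptors 1 of 8 was called. EPHB2 was at 27.7, 56.3 and 66.5 CPM in the lowest, median and highest single-stomach library and at 26.9 to 40.8 CPM in the pools, which overlap through the right library of replicate 5. Its log2 fold was 0.59 ± 0.19 (edgeR adjusted p = 0.0294), and the call was lost without the left library of replicate 7 (0.108), the left library of replicate 8 (0.0546), the right library of replicate 6 (0.0616) or the right library of replicate 8 (0.0533). EPHB3 had a fold of 0.49 ± 0.19 that did not pass (adjusted p = 0.0608).

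Netrin-1 had the largest positive fold between single-stomach and pooled libraries. It stood at 2.61, 5.78 and 9.48 CPM in the lowest, median and highest single-stomach library and at 1.30, 1.03, 2.42 and 0.577 CPM in the pools. All 10 single-stomach libraries stood above all 4 pools, and the log2 fold was 2.23 ± 0.38 (edgeR adjusted p = 0.000595), a 4.70-fold difference. It was called in the left libraries alone (adjusted p = 0.0254) and in the right libraries alone (0.0304).

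**Figure D3:**
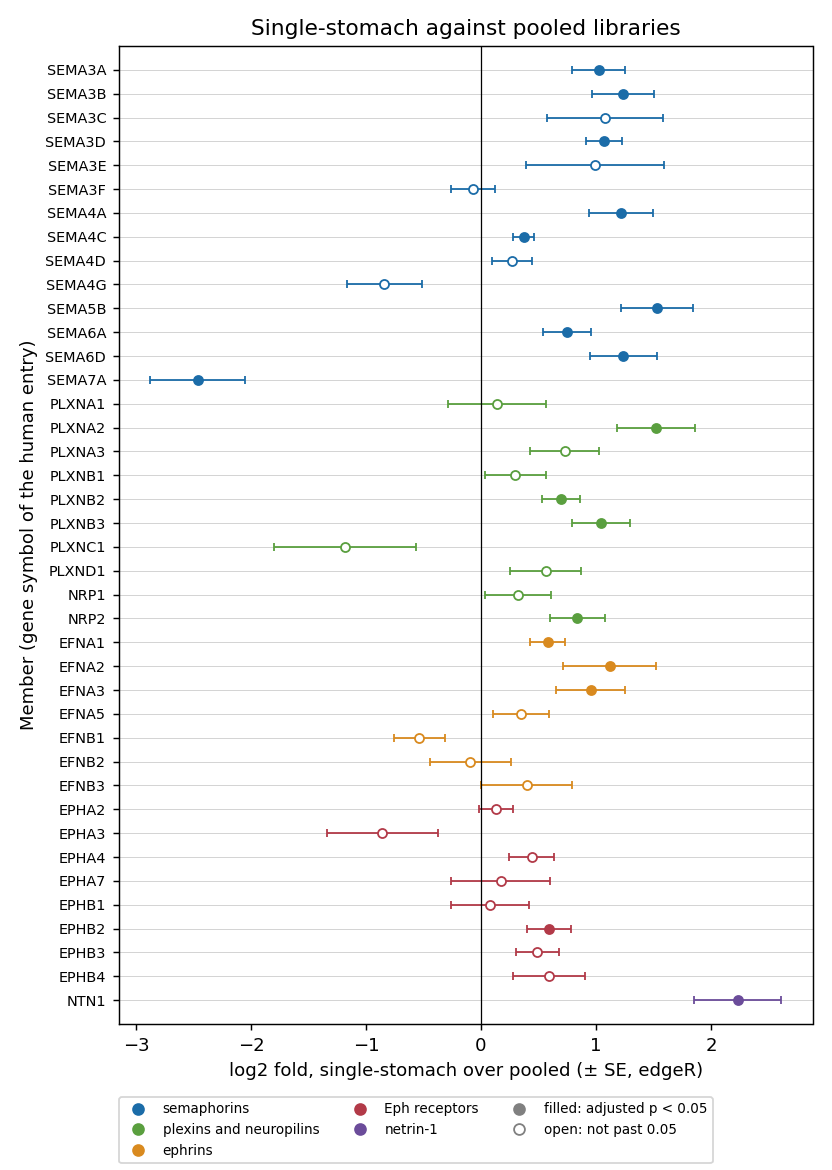
Log2 fold of single-stomach over pooled libraries (x axis, with SE bars, edgeR with side as a term) for each of the 40 tested entries by gene (y axis). Filled points pass an adjusted p of 0.05; NTN1 lies farthest to the right at 2.23 and SEMA7A farthest to the left at -2.46.

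Without overlap, 8 of the 40 entries stood higher in the single-stomach libraries (20%, beside 11% of all rows), and 1, SEMA7A, stood lower (2.5%, beside 6.85%). The 8 were EFNA2, NTN1, PLXNB2, PLXNB3, SEMA3D, SEMA4C, SEMA5B and SEMA6D. Other tissues moved with the same comparison. All 7 tested liver markers were called lower in the single-stomach libraries, with sums of 1383 to 9557 CPM beside 17921 to 25589 CPM in the pools. Of 7 tested epidermis markers 6 were called higher, with sums of 281 to 1610 CPM beside 19.3 to 167 CPM, and TP63 was at 0 in 1 library. Of 7 tested skeletal muscle markers 4 were called lower, with sums of 3.34 to 10.7 CPM beside 16.5 to 73.7 CPM, and MYOD1 was at 0 in 6 libraries. Of 10 endothelial markers 3 were called higher and 1 lower. Their part in the differences of the guidance genes was not tested.

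Partners of these receptors and the netrin and Slit genes were read against the 17.7% of rows called higher and the 12.7% called lower, 30.4% in all. Of the 17 tested partners of semaphorin and plexin signalling 6 were called higher and 2 lower. MICAL2, an enzyme that oxidises actin, had a log2 fold of 1.95 ± 0.31, and GIPC1, an adaptor that binds neuropilin-1, had -0.60 ± 0.12. Of the 18 tested Eph and ephrin partners 6 were called higher and 0 lower, among them RASA1 (0.68 ± 0.11) and the kinase SRC (0.74 ± 0.15). Of the 14 tested netrin and Slit genes 4 were called higher and 0 lower, among them SLIT2 (0.94 ± 0.30), a secreted ligand of Robo receptors. No list was tested against the other rows.

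Where an entry had several rows, the rows could be compared with each other. NRP2 had 3 rows with source folds of 0.84, 0.97 and 1.51 on the log2 scale, and EPHB2 had 2 with 0.59 and 0.75. The 2 rows of PLXNB3 had 1.04 and 1.14, and the 5 rows of SEMA6D ran from 0.58 to 1.24, all with an adjusted p under 0.05 in edgeR. SEMA3B, also called, had a second row at 0.95 that did not pass (adjusted p = 0.0527), and the second row of SEMA7A was not tested. Between the sides the 3 rows of EPHA7 had log2 folds of 0.67, 0.69 and 0.56, while those of PLXNB3 were -0.06 and 0.22 and none passed. Rows of 1 entry may share reads, so they are not separate measurements.

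Whether the side difference itself changed between single-stomach and pooled libraries was tested as an interaction. edgeR called 0 of 41 entries and 0 of 24262 rows (0%), with 0 of the entries and 1911 rows (7.88%, and 4.41% with a positive term) at an unadjusted p under 0.05. DESeq2 called 141 rows and 0 entries. The test rested on 4 pools and its errors were wide, as for EPHB1 (1.09 ± 0.63) and SEMA4G (-0.97 ± 0.64) in edgeR. The lack of calls therefore cannot show that the side difference was the same in both kinds of library.

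Within the single-stomach libraries the levels of some members, as of a like share of all rows, followed the division into replicates 1 to 3 and replicates 5 and 6. This division is seen in the counts and is not a group of the study. Replicates 1 to 3 stood above replicates 5 and 6 without overlap in 7 of the 40 entries (17.5%, beside 18.3% of all rows), and below them in 8 (20%, beside 18.8%), shares close to the background. The 7 were EFNA3, EFNB1, EPHB4, PLXNA1, PLXNC1, PLXND1 and SEMA3C, and the 8 were EFNB2, NRP2, PLXNA2, PLXNB1, PLXNB2, SEMA3D, SEMA4G and SEMA6A. These genes were picked by their values, so the levels are a description.

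Receptors and ligands were found on both sides of this division. As a like share of all rows split this way, opposite orders of a receptor and its ligand were not read as a relation between them. PLXNA1, a receptor for class 3 and class 6 semaphorins, was at 10.8 to 13.5 CPM in replicates 1 to 3 and at 2.70 to 4.36 CPM in replicates 5 and 6. EPHB4, the receptor of EFNB2 in blood vessels, was at 49.5 to 70.7 CPM and at 21.6 to 32.9 CPM. EFNB2, its ligand, went the other way, at 80.3 to 167 CPM in replicates 1 to 3 and at 227 to 289 CPM in replicates 5 and 6. PLXNB1, the receptor of SEMA4D, was at 88.2 to 155 CPM and at 169 to 229 CPM. PLXND1 was at 47.4 to 91.3 CPM and at 25.8 to 43.1 CPM, while NRP2 was at 35.3 to 52.7 CPM and at 77.3 to 86.0 CPM.

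**Figure D4:**
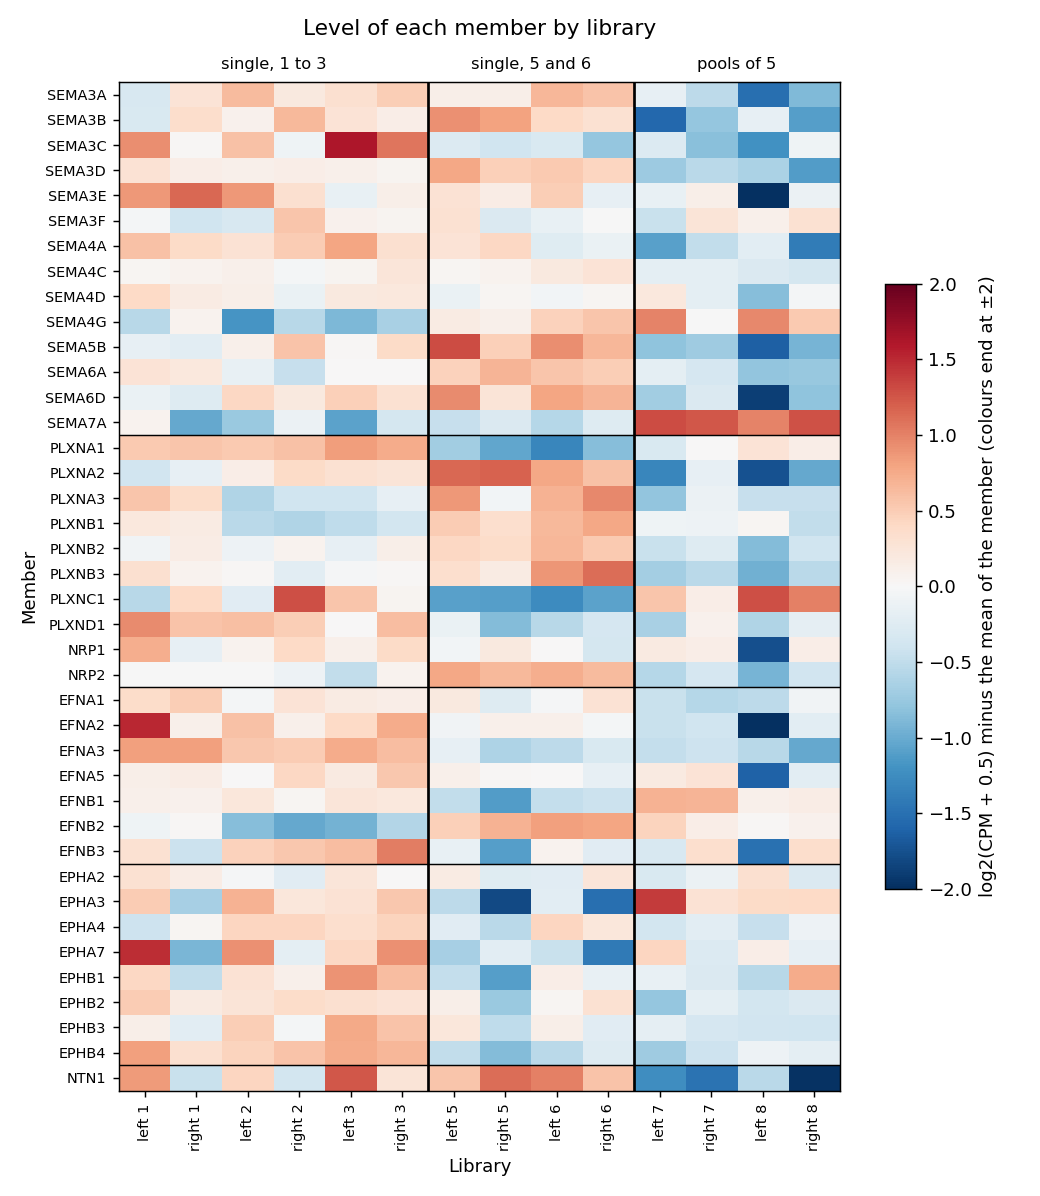
Level of each of the 40 tested entries (rows) in each library (columns), as log2(CPM + 0.5) minus the mean of the entry, with colours ending at ±2 and libraries ordered by replicates 1 to 3, replicates 5 and 6 and pools. Left and right libraries of a replicate look alike for most genes, EFNB2 and NRP2 are higher in replicates 5 and 6, and SEMA7A is higher in the pools.

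Across all 14 libraries the members varied more than the typical row. The median SD of log2(CPM + 0.5) was 0.581 over the 40 entries and 0.431 over all 23271 rows. These SDs include the difference between single-stomach and pooled libraries, and the rows were not matched on level. SEMA4C was at the low end with an SD of 0.194, followed by EPHA2 with 0.234. SEMA3E, the ligand of PLXND1, was at the high end with 1.16, and had 0 counts in the left pool of replicate 8 and 5.59 to 14.6 CPM in the other libraries. The same left pool was also the lowest library for EFNA2, EFNA5, EFNB3, NRP1, NRP2, PLXNA2, PLXNB2, PLXNB3, SEMA3A, SEMA3C, SEMA4D, SEMA5B, SEMA6A and SEMA6D. The share of all rows that were lowest in this pool was not counted, so the list is not set against a background. NRP1, the co-receptor of SEMA3A, was at 11.97 CPM there and at 32.5 to 68.7 CPM in the other 13 libraries.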

How the data were processed

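The authors deposited raw read counts per row for 26940 rows, 19415 of them reviewed human UniProt entries. Trimmomatic, DESeq, Bowtie, SAMtools 0.1.19 and Bowtie2 2.1.0 are listed in the submitters' processing notes, without saying what each did. Per the labels' protocols, libraries were strand-specific. Whether strand was used in counting is not given in the sources used here. Nothing states that libraries sharing a title came from 1 stomach, and a p-value reflects the spread between the libraries alone, which may be technical.

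All rows were tested with edgeR 4.0.16 (quasi-likelihood, TMM factors, filterByExpr with a minimum count of 10) in R 4.3.3, with side and library source as terms, and p-values were adjusted over all rows by Benjamini-Hochberg with a threshold of 0.05. The SE of an edgeR fold is not reported by edgeR and was derived as the absolute log2 fold divided by the square root of its F statistic. That of a DESeq2 fold is the SE of the fit. Intervals are the log2 fold ± 2 SE. The interaction of side with source was fitted likewise. DESeq2 1.42.0, other scalings, filters and library sets, the replicate block and each library left out were alternatives. The paired DESeq2 fits without 1 pair were added after seeing the data. Programs were tested on simulated data.

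Libraries of 1 title pair deviated together from the mean of the single-stomach libraries of their side. The correlations were 0.623, 0.639, 0.641, 0.773 and 0.846, in the order of replicates 1, 2, 3, 5 and 6. The best match of 8 of 10 libraries was their own title on the other side, so the titles were taken to pair the single-stomach libraries. The division into replicates 1 to 3 and replicates 5 and 6 was not removed from these deviations. The correlations alone therefore cannot show that libraries of 1 title belong together. The pools shared 1 level of the block.

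The members and lists were chosen with earlier results of these data known. The rule gave values for members called between the sides by any alternative (leaving out libraries aside). It also gave them for the member of highest mean read count, uncorrected for length, and the lowest-p member of each family. Up to 3 members called by source each way in each superfamily were included too. Members outside the rule, among them EPHA3, EPHB1, EPHB4, EFNB2, NRP1, PLXNA1, PLXNB1, SEMA3C, SEMA3E and SEMA4G, were chosen after their values were seen. The authors' normalized table was not used.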

Additional observations from a re-analysis of the deposited data

Results flagged for a closer look

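In 7 of 80 groups of 7 libraries (40 entries on each side), 1 library stood far from the others by Dixon's test, with a critical value of 0.568. For 7 draws from 1 normal population, chance alone picks out about 1 in 20 groups with this test. Each group here mixed single-stomach libraries and pools, so that rate need not hold. The right library of replicate 3 accounted for 4 of the 7. It was the highest right library for EFNA2 at 29.96 CPM (next 19.04), for EPHA7 at 20.72 CPM (next 9.60), for EPHB3 at 80.48 CPM (next 52.5) and for SEMA3C at 6.73 CPM (next 2.999). The right library of replicate 6 was highest for PLXNB3 at 32.05 CPM (next 16.3), and the right library of replicate 1 was highest for SEMA3E at 14.57 CPM (next 8.02). The left pool of replicate 8 was lowest for EFNA5 at 17.28 CPM (next 54.3).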

How the results depend on the processing

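Between the sides, the count of rows called was 0 in edgeR and changed in DESeq2 alone, to 13 rows with the replicate block (6 higher, 7 lower), to 6 with 3 library sets as a term (4 higher, 2 lower) and to 105 in the single-stomach pairs with the replicate block. Leaving out each pair from the last gave 23 rows without pair 1, 44 without 2, 105 without 3, 100 without 5 and 98 without 6. Members called there were 1 with all 5 pairs and 0 to 2 without 1 pair. Elsewhere 0 members were called between the sides, with and without the replicate block, and of 918 folds of named members under alternatives 114 changed sign, none of them called. Between single-stomach and pooled libraries, 7082 rows became 4129 at a threshold of 0.01, 2694 in the left libraries alone, 2675 in the right alone and 4300 with rows summed by entry (12515 tested). Members called fell from 18 to 7 on the left alone and 6 on the right alone. There fewer libraries were fitted and each title counted once. Members called ran from 14 to 19 without 1 library. The interaction called 0 members under each alternative. Depth limits the low entries, with 4 counts of SEMA7A, 8 of NTN1 and 13 of SEMA3C in their poorest library.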
